A study of Mus musculus with 6 samples.

Results

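The proteasome subunits are described here as 39 genes of the mouse: 7 subunits of the 20S alpha ring, 7 constitutive subunits of the 20S beta ring, 3 immunoproteasome beta subunits, 6 ATPases and 11 non-ATPase subunits of the 19S cap, 4 subunits of alternative activators, and Pomp, the factor that helps the 20S core mature. They were chosen by name, with no measured value in the rule, out of 43629 genes in the deposited tables, and all 39 were found. All 39 also passed the filter on low counts that left 15341 genes for testing. The RNA came from primary dermal fibroblasts grown out of newborn mouse skin, at passage 1 and after 6 days in culture. The caNrf2 group held 3 libraries from mice that carried the Col1a2Cre transgene together with a constitutively active mutant of the transcription factor Nrf2. The ctrl group held 3 libraries from mice with Col1a2Cre only, so Cre was present in both groups, and the background of all mice was a mix of 50% C57Bl/6 and 50% FVB/N. Col1a2Cre expresses the recombinase in fibroblasts, so other cells of a culture need not carry the active allele. Bulk RNA-seq then gave 1 library for each culture, and each library was taken as 1 mouse. Where a level can be set by the number of cells of a type, fewer cells and less RNA per cell cannot be told apart in such data.

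The 26S proteasome is the protease that degrades proteins tagged with ubiquitin. Its 20S core is a barrel of stacked rings: outer alpha rings gate the entrance, and inner beta rings carry the proteolytic sites. The 19S cap binds ubiquitin chains, removes them, and unfolds and feeds the substrate into the core with a ring of ATPases. In cells exposed to interferon-gamma, and in many immune cells at rest, the 3 immunoproteasome subunits take the place of the catalytic beta subunits, and the PA28 activator can bind in place of the cap. Transcription of the subunit genes is driven mainly by Nfe2l1 (also called Nrf1), a relative of Nrf2, when proteasome activity falls short, and Nrf2 activators have been reported to raise subunit levels in mouse cells.

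Library totals ran from 37031932 to 44925782 expected counts in caNrf2 and from 30168250 to 45164071 in ctrl, so that 1 read was worth 0.0223 to 0.0331 CPM (CPM: the count divided by the library's total over the tested genes after TMM scaling, on the usual scale). The transgenic gene was checked first. Nfe2l2, which encodes Nrf2, had 352, 429.9 and 358 CPM in the caNrf2 libraries, against 113, 103 and 112 CPM in the ctrl libraries. It was 3.48-fold higher in caNrf2 (adjusted p = 5.96e-06, edgeR's quasi-likelihood test, with all adjusted p values by the Benjamini-Hochberg method across the 15341 genes), and counts of the transgene and of the gene's own transcripts were not separated. All 8 NRF2 targets on a list of known target genes were higher in caNrf2: by log2 fold change, Nqo1 by 4.66, Srxn1 by 4.0, Slc7a11 by 3.78, Gclm by 2.77, Txnrd1 by 2.40, Gsr by 2.40, Gclc by 2.26 and Hmox1 by 0.89. Fibroblast markers were abundant in every library, with Col1a1 at 11160 to 12670 CPM in caNrf2 and 14010 to 20290 CPM in ctrl, and 5 of the 10 fell, among them Fbn1 (-0.74 ± 0.14 log2, SE), while 2 rose.

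Markers of other cells were also present, and those of some cell types moved with the genotype. Of 18 macrophage and leukocyte markers, 16 rose and none fell, none was at 0 in every library, and their summed level was 217, 239 and 200.3 CPM in caNrf2 libraries 1 to 3, against 27.6, 77.5 and 77.9 CPM in ctrl libraries 1 to 3. Lyz2, the most abundant of them per transcript length, had 103, 104 and 86.3 CPM in the caNrf2 libraries, against 10.4, 35.2 and 34.0 CPM in the ctrl libraries, and Ptprc, the pan-leukocyte marker CD45, rose by 2.14 ± 0.27 log2 (SE). Of 12 skeletal muscle markers tested, 9 rose, with Mylpf up by 0.91 log2. The summed level of all 14 on the list, tested or not, was 240.9 to 318 CPM in caNrf2 and 160.4 to 179 CPM in ctrl. In the other lists the genes that rose were 2 of 8 keratinocyte markers tested (Krt14, the most abundant, by 0.73 log2 and Sfn by 1.78) and 1 of 8 endothelial and pericyte markers (Cdh5 by 1.04). Over all genes tested 12.5% rose. The endothelial and pericyte list did not move as a whole: 4 of its 8 genes were above 0, with a median log2 fold change of 0.098. At an unadjusted p under 0.05 in edgeR's test, 2 of them were higher and 2 lower. Of 5 melanocyte and Schwann cell markers reported here, 0 passed edgeR's test and 0 had an unadjusted p under 0.05, with Dct, the most abundant, at 0.44 log2. The calls of Krt14, Cdh5 and Col1a1 were lost without at least 1 library (adjusted p up to 0.0788). The part of any of these cells in the proteasome values was not tested.

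One library stood apart by transcript length. Against the mean of caNrf2 replicates 2 and 3, the log2 CPM of caNrf2 replicate 1 had a median difference of 0.25 over 1630 genes with transcripts of up to 1000 bases, of -0.23 over 1792 genes with transcripts over 5000 bases, and of 0.41 over 81 ribosomal protein genes. The 20S genes are short, with a median transcript length of 1039 bases in the alpha ring and 871 in the beta ring, against 1462 for the 19S ATPases and 1599 for the non-ATPases. The same median difference was 0.22 over the alpha ring, 0.33 over the constitutive beta ring and 0.45 over the 3 immunoproteasome subunits, but 0.10 over the 19S ATPases and 0.08 over the 19S non-ATPases. Results are therefore also given without this library.

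The fitted levels of proteasome transcripts were higher in the caNrf2 cultures for most of the complex, by small amounts, and a minority of the genes passed the test. Of the 39 genes, 13 rose and none fell at an adjusted p under 0.05. Over all 15341 genes tested, 12.5% rose and 9.03% fell. The 13 were Psma2, Psma3, Psma5 and Psma7 of the alpha ring, Psmb3 and Psmb5 of the beta ring, Psmc1 and Psmc5 of the 19S ATPases, Psmd1, Psmd7 and Psmd11 of the 19S non-ATPases, Psme4 of the alternative activators, and Pomp. The fitted log2 fold change was above 0 in 36 of the 39, with a median of 0.21 (1.16-fold), against a median of -0.0031 over all genes tested. In 29 of the 39, every caNrf2 library lay above every ctrl library in CPM, a pattern found in 22% of all genes tested. Of these 29, Psma4, Psmb2, Psmb7, Psmc6, Psmd2, Psmd3, Psmd13, Psmd14 and Psme3 had overlapping groups in TPM, the length-scaled level that the authors deposited. In 1 of the 39, Psmb9, every caNrf2 library lay below in CPM, a pattern found in 20.1% of all genes tested.

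**Figure D1:**
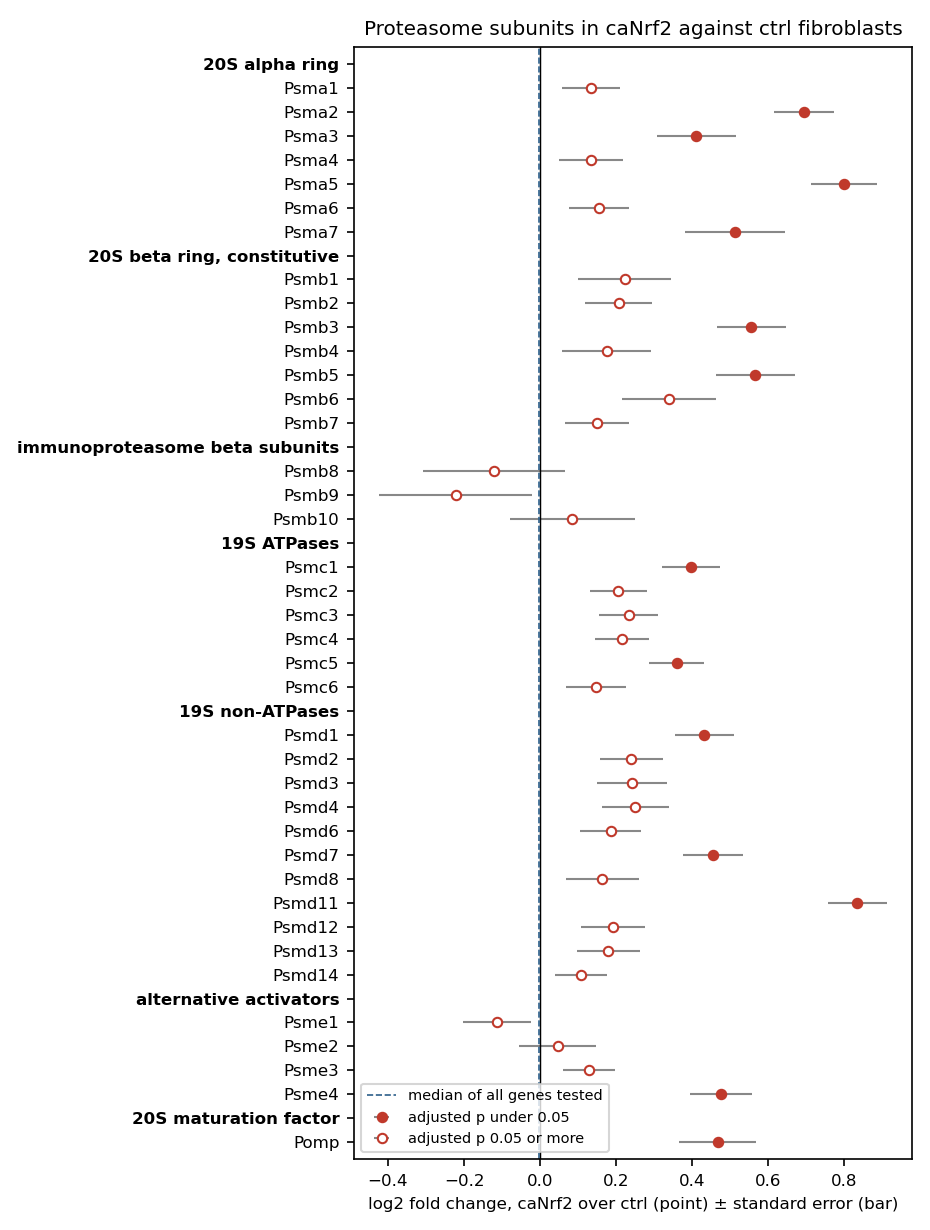
Log2 fold change, caNrf2 over ctrl, of each of the 39 proteasome genes (points) with its standard error (bars), grouped by subcomplex. Filled points passed an adjusted p of 0.05 and open points did not, and the dashed line is the median of all genes tested. The 13 filled points all lie to the right of 0, Psmd11 and Psma5 farthest, and Psmb8, Psmb9 and Psme1 lie to the left.

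The genes that did not pass the test were not shown to be unchanged. At an unadjusted p under 0.05, 23 members were higher and 0 were lower, against 18.8% higher and 16.4% lower over all genes tested. Without caNrf2 replicate 1, 12 of the members rose, their median log2 fold change was 0.18, and 34 of the 39 stayed above 0.

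**Figure D2:**
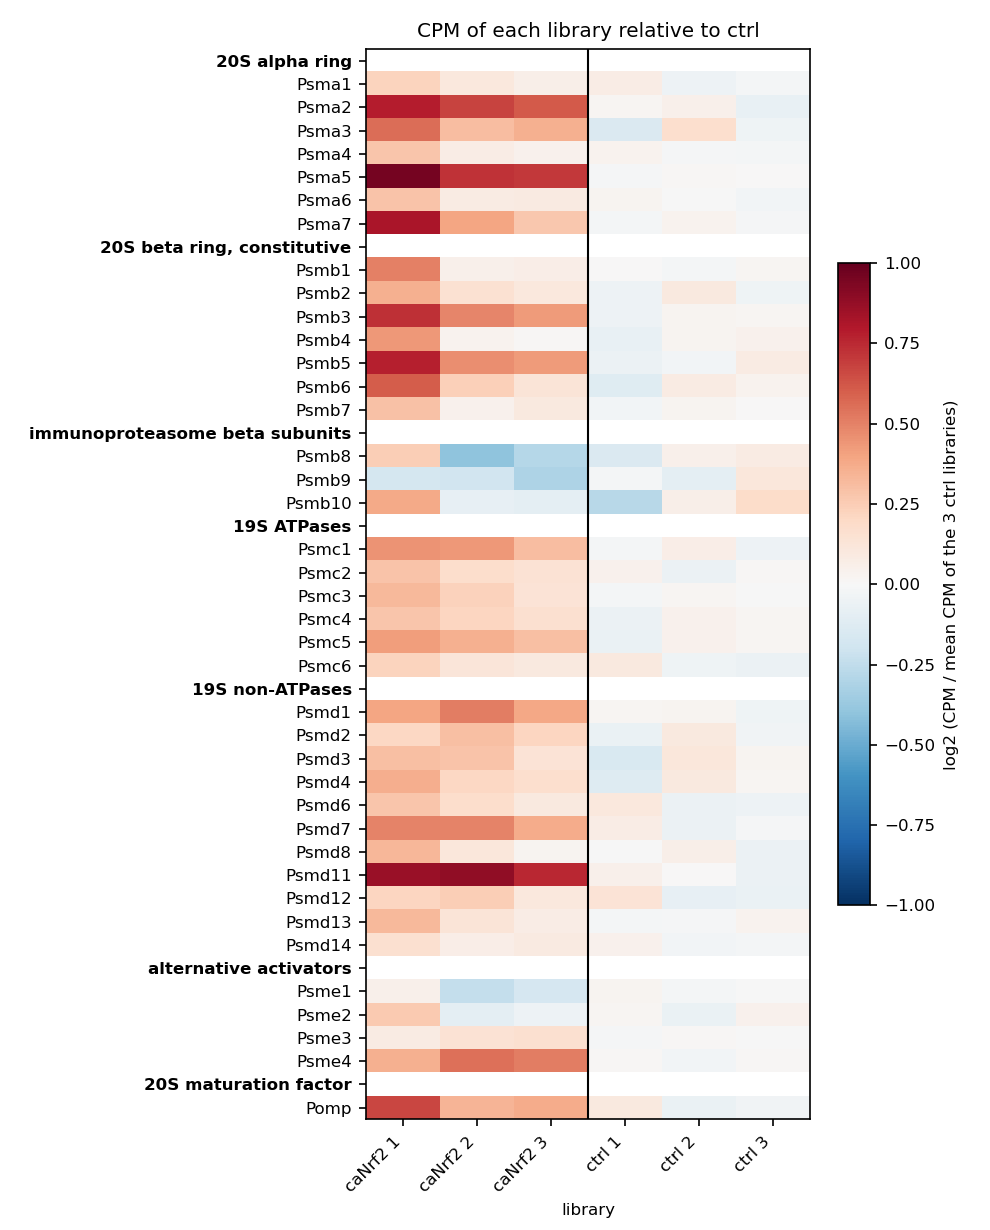
Log2 ratio of the CPM in each library to the mean of the 3 ctrl libraries, for the 39 genes in rows and the 6 libraries in columns (caNrf2 left of the line, ctrl right). Red is above the ctrl mean and blue below, on a scale of -1 to 1. Psma2, Psma5, Psmb3, Psmb5 and Psmd11 are red in all 3 caNrf2 libraries, and caNrf2 replicate 1 is the deepest red in most rows of the alpha and beta rings.

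In the alpha ring 4 of 7 genes rose, and the median log2 fold change was 0.41. Psma5, an alpha subunit encoded at chr3:108256926-108279974 (GRCm38), had 146, 124 and 122 CPM in the caNrf2 libraries, against 74.2, 75.8 and 75.0 CPM in the ctrl libraries. All caNrf2 values lay far above the closely spaced ctrl values, and the difference was 1.74-fold (log2 0.80 ± 0.09, SE; adjusted p = 0.000315). Psma2, encoded at chr13:14613242-14625671, had 165, 153 and 146 CPM in the caNrf2 libraries, against 96.98, 98.6 and 90.8 CPM in the ctrl libraries. Its groups did not overlap either, with means of 154 ± 9.56 CPM in caNrf2 and 95.5 ± 4.15 CPM in ctrl (SD, n = 3 each), a 1.62-fold difference (log2 0.69 ± 0.08; adjusted p = 0.000439).

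Psma7 and Psma3 rose by less and varied more. Psma7 had 143, 107 and 97.5 CPM in the caNrf2 libraries, against 79.8, 83.0 and 80.2 CPM in the ctrl libraries, so that caNrf2 replicate 1 was far above the other 2 (log2 0.51 ± 0.13; adjusted p = 0.0244). Psma3 had 136, 115 and 119 CPM in the caNrf2 libraries, against 83.6, 104 and 90.1 CPM in the ctrl libraries, with ctrl replicate 2 the highest of its group (log2 0.41 ± 0.10; adjusted p = 0.0235). Neither call was firm: Psma7 lost its call without any 1 of the ctrl libraries (adjusted p of 0.0535 to 0.0854), and Psma3 without ctrl replicate 1 or 3 or caNrf2 replicate 1 or 3 (0.0523 to 0.0861). The value of Psma7 was log2 0.33 without caNrf2 replicate 1 (adjusted p = 0.0166). The other 3 alpha genes, Psma1, Psma4 and Psma6, had log2 fold changes of 0.13 to 0.15 and did not pass. The lowest, Psma1, had 93.1, 85.9 and 83.2 CPM in the caNrf2 libraries, against 83.9, 76.8 and 78.4 CPM in the ctrl libraries, and its groups touched, with caNrf2 replicate 3 just below ctrl replicate 1 (log2 0.13 ± 0.08; adjusted p = 0.242). Without caNrf2 replicate 1 the log2 values of Psma1, Psma4 and Psma6 were 0.086, 0.055 and 0.085.

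In the constitutive beta ring 2 of 7 genes rose, and the median log2 fold change was 0.22. One of them is catalytic: Psmb5, which carries the chymotrypsin-like site, had 119, 95.5 and 92.8 CPM in the caNrf2 libraries, against 66.4, 67.9 and 73.1 CPM in the ctrl libraries. All 3 caNrf2 libraries were above all 3 ctrl libraries, 1.48-fold on average (log2 0.57 ± 0.10; adjusted p = 0.00536). Psmb5 lies at chr14:54614120-54617995. The other is structural: Psmb3, at chr11:97703399-97713500, had 113, 95.8 and 91.5 CPM in the caNrf2 libraries, against 65.8, 69.5 and 69.1 CPM in the ctrl libraries, and was 1.47-fold higher without overlap (log2 0.56 ± 0.09; adjusted p = 0.00317).

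The remaining catalytic genes did not pass. Psmb6, which carries the caspase-like site, had 115, 89.3 and 82.9 CPM in the caNrf2 libraries, against 69.7, 80.1 and 77.4 CPM in the ctrl libraries. Its groups did not overlap, but its log2 fold change of 0.34 ± 0.12 had an adjusted p of 0.0852, and of 0.0492 by DESeq2. Without caNrf2 replicate 1 its log2 fold change was 0.18 (adjusted p = 0.16). Psmb7, which carries the trypsin-like site, had the smallest change of the ring, with 114, 95.5 and 99.4 CPM in the caNrf2 libraries, against 91.1, 94.4 and 92.8 CPM in the ctrl libraries (log2 0.15 ± 0.08; adjusted p = 0.234). Psmb4, the most abundant of the ring per transcript length, had 164, 124 and 122 CPM in the caNrf2 libraries, against 115, 123 and 125 CPM in the ctrl libraries. There caNrf2 replicate 1 alone stood above ctrl, and replicates 2 and 3 lay among the ctrl values (log2 0.17 ± 0.12; adjusted p = 0.324). Psmb1 and Psmb2, both structural, were at log2 0.22 and 0.21. Without caNrf2 replicate 1 the log2 values were 0.071 for Psmb7, 0.025 for Psmb4, 0.059 for Psmb1 and 0.13 for Psmb2, and the median of the ring was 0.13.

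None of the 3 immunoproteasome genes passed the test in either direction. Psmb8, the counterpart of Psmb5, had 6.82, 4.33 and 4.70 CPM in the caNrf2 libraries, against 5.19, 5.94 and 6.08 CPM in the ctrl libraries. Psmb10, the counterpart of Psmb7, had 15.7, 11.4 and 11.2 CPM in the caNrf2 libraries, against 9.92, 12.6 and 13.7 CPM in the ctrl libraries. In both, caNrf2 replicate 1 was the highest of the 6 libraries and the other caNrf2 libraries lay within or below the ctrl range, so that the groups overlapped (log2 -0.12 ± 0.19 and 0.08 ± 0.16; adjusted p = 0.678 and 0.748). Psmb9, the counterpart of Psmb6, had 1.16, 1.15 and 1.06 CPM in the caNrf2 libraries, against 1.30, 1.23 and 1.42 CPM in the ctrl libraries. All 3 caNrf2 values were below all 3 ctrl values in CPM, though not in TPM, and the difference did not pass (log2 -0.22 ± 0.20; adjusted p = 0.466). Psmb9 overlaps Tap1 on the opposite strand, and since the strand setting is not given in the sources used here, reads of the overlap cannot be told apart. Psmb8 and Psmb9 lie 9.96 kb apart on chromosome 17. Without caNrf2 replicate 1, Psmb8 was at log2 -0.35 (adjusted p = 0.126). The direction of Psmb10 was not fixed: its log2 fold change was -0.048 without ctrl replicate 1 and -0.089 without caNrf2 replicate 1.

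Set against their constitutive counterparts per transcript length (TPM, the length-scaled level that the authors deposited), the inducible subunits made up a small share of the catalytic transcripts. Psmb8, Psmb9 and Psmb10 together were 4.80%, 4.35% and 4.37% of all 6 catalytic genes in the caNrf2 libraries, against 4.82%, 5.75% and 6.15% in the ctrl libraries. The means were 4.51% ± 0.254 in caNrf2 and 5.57% ± 0.683 in ctrl (SD, n = 3 each), and the highest caNrf2 value lay just under the lowest ctrl value. The gap was widest for the pair of Psmb8 and Psmb5, where Psmb8 made up 3.93% ± 0.443 of the pair in caNrf2 and 5.85% ± 0.857 in ctrl. Psmb10 made up 9.87% ± 0.932 of its pair with Psmb7 in caNrf2 and 10.3% ± 1.32 in ctrl, and Psmb9 made up 0.863% ± 0.171 of its pair with Psmb6 in caNrf2 and 1.105% ± 0.291 in ctrl, with overlapping values. No test was made of these shares. Psmb8 had 12.0, 8.42 and 8.87 TPM in the caNrf2 libraries, against 8.24, 11.6 and 11.6 TPM in the ctrl libraries. Its groups overlapped, with the highest value in caNrf2 replicate 1. Psmb5 had 259.9, 229.6 and 222 TPM in the caNrf2 libraries, against 160.1, 165 and 178 TPM in the ctrl libraries, without overlap. Which of these genes accounts for the difference in shares was not tested. The leukocyte markers, which mark cells known to express these subunits, were higher in caNrf2, as given above, and their part in these shares was not tested.

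**Figure D3:**
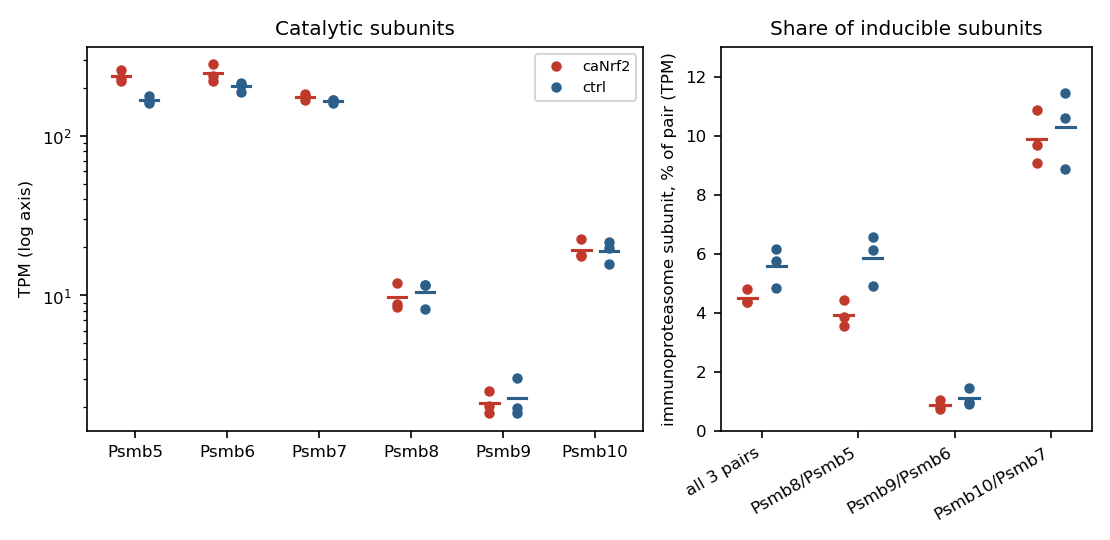
Left, TPM (log axis) of the 3 constitutive and the 3 inducible catalytic subunits in each caNrf2 library (red) and ctrl library (blue), with bars at the group means. Right, the share of the inducible subunit in the summed TPM of each pair, and of all 3 pairs together, in percent. The Psmb5 points of caNrf2 lie above those of ctrl, and the share of Psmb8 in its pair is 3.93% in caNrf2 and 5.85% in ctrl on average.

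In the 19S base, 2 of the 6 ATPase genes rose, and all 6 had higher means in caNrf2, with a median log2 fold change of 0.22. These ATPases form the ring that unfolds substrates and opens the gate of the core. Psmc1, at chr12:100110186-100123364, had 141, 139 and 128 CPM in the caNrf2 libraries, against 102, 108 and 99.4 CPM in the ctrl libraries, with all 3 caNrf2 libraries above ctrl (log2 0.40 ± 0.08; adjusted p = 0.00659). Psmc5, at chr11:106256154-106263120, had 113, 108 and 104 CPM in the caNrf2 libraries, against 80.7, 86.9 and 85.5 CPM in the ctrl libraries, again without overlap (log2 0.36 ± 0.07; adjusted p = 0.00782). Psmc3, the most abundant ATPase per transcript length, had 157, 147 and 138 CPM in the caNrf2 libraries, against 124, 127 and 125 CPM in the ctrl libraries. It too did not overlap, yet missed the threshold (log2 0.23 ± 0.08; adjusted p = 0.0623, and 0.034 by DESeq2), as did Psmc4 at log2 0.21 (adjusted p = 0.063) and Psmc2 at 0.21 (0.0833). Psmc6 had the smallest change, with 127, 118 and 116 CPM in the caNrf2 libraries, against 116, 106 and 104 CPM in the ctrl libraries, where caNrf2 replicate 3 and ctrl replicate 1 were about level (log2 0.15 ± 0.08; adjusted p = 0.214).

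Among the 11 non-ATPase subunits of the 19S cap 3 rose, and the median log2 fold change was 0.24. Psmd11, which clamps the cap to the core, had the largest fold change of the 39 genes. At chr11:80428615-80473248, it had 179.7, 183 and 167 CPM in the caNrf2 libraries, against 103, 99.3 and 94.8 CPM in the ctrl libraries. It was 1.78-fold higher in caNrf2, with a tight spread in each group (log2 0.83 ± 0.08; adjusted p = 0.000119). Psmd7, the partner of the deubiquitinase Psmd14, is encoded at chr8:107580381-107588482 and had 169.9, 169 and 155 CPM in the caNrf2 libraries, against 126, 115 and 119 CPM in the ctrl libraries, without overlap (log2 0.46 ± 0.08; adjusted p = 0.00411). Psmd1, a scaffold of the cap's base, is encoded at chr1:86064387-86139151 and had 219, 237 and 218 CPM in the caNrf2 libraries, against 169, 169.6 and 162 CPM in the ctrl libraries, also without overlap (log2 0.43 ± 0.08; adjusted p = 0.00483).

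The other 8 genes of the cap were at log2 0.11 to 0.25 and did not pass. Psmd14 itself, which cuts ubiquitin chains from the substrate, had the smallest difference of the cap, with 89.3, 83.5 and 85.1 CPM in the caNrf2 libraries, against 82.3, 78.4 and 78.6 CPM in the ctrl libraries (log2 0.11 ± 0.07; adjusted p = 0.291). Psmd2, a docking site for ubiquitin shuttle factors, had the most counts of the 39 genes, 343, 366 and 345 CPM in the caNrf2 libraries, against 283, 318 and 291 CPM in the ctrl libraries. Its groups did not overlap in CPM, though they did in TPM. Its adjusted p was 0.0726 (log2 0.24 ± 0.08) and 0.0293 by DESeq2. Psmd8, the most abundant non-ATPase subunit per transcript length, had 184, 157 and 149 CPM in the caNrf2 libraries, against 146, 152 and 140.2 CPM in the ctrl libraries, and caNrf2 replicate 3 lay within the ctrl range (log2 0.16 ± 0.10; adjusted p = 0.257). Psmd4, the ubiquitin receptor of the cap, was at log2 0.25 ± 0.09 (adjusted p = 0.0763), and Psmd3, Psmd6, Psmd12 and Psmd13, structural subunits, at 0.24, 0.19, 0.19 and 0.18. Psmd8 was at log2 0.069 and Psmd13 at 0.0996 without caNrf2 replicate 1.

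Among the alternative activators, Psme4, which encodes PA200, a large nuclear activator of the core, rose, and none of the PA28 genes passed the test. Psme4, at chr11:30771726-30880361, had 192, 219.9 and 214 CPM in the caNrf2 libraries, against 152, 147 and 151 CPM in the ctrl libraries. Its caNrf2 values were all far above ctrl, and here caNrf2 replicate 1 was the lowest of its group (log2 0.47 ± 0.08; adjusted p = 0.00404). Psme1, which with Psme2 forms the interferon-inducible PA28, had 43.8, 35.7 and 37.4 CPM in the caNrf2 libraries, against 42.9, 41.5 and 42.0 CPM in the ctrl libraries, with the highest value in caNrf2 replicate 1 and the others below ctrl (log2 -0.11 ± 0.09; adjusted p = 0.396, and log2 -0.21 without caNrf2 replicate 1, with an adjusted p of 0.0753). Psme2, the most abundant activator gene per transcript length, had 70.9, 55.2 and 57.1 CPM in the caNrf2 libraries, against 59.97, 56.6 and 60.9 CPM in the ctrl libraries, with overlap (log2 0.05 ± 0.10; adjusted p = 0.78), and its log2 value was -0.075 without caNrf2 replicate 1. Psme3, the nuclear PA28-gamma, was at log2 0.13 ± 0.07 (adjusted p = 0.212), with every caNrf2 library above every ctrl library in CPM, though not in TPM. Psme1 and Psme2 are neighbours 5.91 kb apart on chromosome 14.

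Pomp, the chaperone on which beta subunits are added to the alpha ring, rose. At chr5:147860628-147875778, it had 86.0, 68.5 and 70.0 CPM in the caNrf2 libraries, against 57.8, 51.7 and 52.9 CPM in the ctrl libraries, with caNrf2 replicate 1 the highest and no overlap (log2 0.47 ± 0.10; adjusted p = 0.0114). Of 7 assembly chaperone genes measured outside the 39, only Psmd5 passed. This chaperone of the 19S base, which is not part of the finished proteasome, had 125, 119.7 and 109.8 CPM in the caNrf2 libraries, against 68.1, 64.5 and 59.8 CPM in the ctrl libraries (log2 0.88 ± 0.08; adjusted p = 0.000136). It was also the most abundant of the 7 per transcript length. The chaperones of the alpha ring, Psmg1, Psmg2, Psmg3 and Psmg4, were at log2 0.13, 0.05, 0.10 and 0.23, all with overlapping groups, and the base chaperones Psmd9 and Psmd10 at 0.03 and 0.16.

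Levels of different genes were compared per transcript length. In TPM, the 14 constitutive core genes summed to 3514, 3182 and 3092 TPM in caNrf2 libraries 1 to 3, against 2571, 2702 and 2646 TPM in ctrl libraries 1 to 3. The 17 cap genes summed to 2557, 2702 and 2569 TPM in caNrf2 libraries 1 to 3, against 2225, 2272 and 2222 TPM in ctrl libraries 1 to 3. In both sums every caNrf2 library was above every ctrl library, and caNrf2 replicate 1 was the highest for the core but not for the cap. The 3 immunoproteasome genes summed to 36.5, 28.9 and 28.3 TPM in caNrf2 libraries 1 to 3, against 25.8, 33.5 and 36.4 TPM in ctrl libraries 1 to 3, with overlap.

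Within the alpha ring the mean level spanned 2.20 times from lowest to highest in caNrf2 and 1.72 times in ctrl, with Psma2 apart from the others in caNrf2. The span was 1.75 times in caNrf2 and 1.72 in ctrl for the constitutive beta ring, 1.57 in caNrf2 and 1.59 in ctrl for the ATPases, and 2.62 in caNrf2 and 2.65 in ctrl for the non-ATPases. The spans were wider elsewhere: the 4 alternative activator genes spanned 2.5 times in caNrf2 and 3.40 in ctrl, and the 3 immunoproteasome genes 9.11 times in caNrf2 and 8.36 in ctrl. Psma2 was the highest of the 39 in caNrf2 and the third in ctrl, at 327 ± 8.55 TPM in caNrf2 and 211 ± 8.80 TPM in ctrl (SD, n = 3 each). Psmb4 was the second in caNrf2 and the highest in ctrl, at 309 ± 36.0 TPM in caNrf2 and 286 ± 6.57 TPM in ctrl, so that in caNrf2 these neighbours in the order lay within their spread of each other. The genes that rose most moved up the order: Psma5 ranked 12 in caNrf2 and 26 in ctrl, and Psmd11 ranked 19 in caNrf2 and 32 in ctrl. At the low end, Psmb10, Psmb8 and Psmb9 kept ranks 37, 38 and 39 in both groups, below Psme4 at 61.4 ± 7.06 TPM in caNrf2 and 47.4 ± 1.23 TPM in ctrl. On the TPM scale 33 of the 39 genes were higher in caNrf2, and their median log2 difference was 0.15, against -0.06 over all genes tested. Psmd14, Psme2 and Psme3, above 0 in the fit, were slightly below 0 on this scale.

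**Figure D4:**
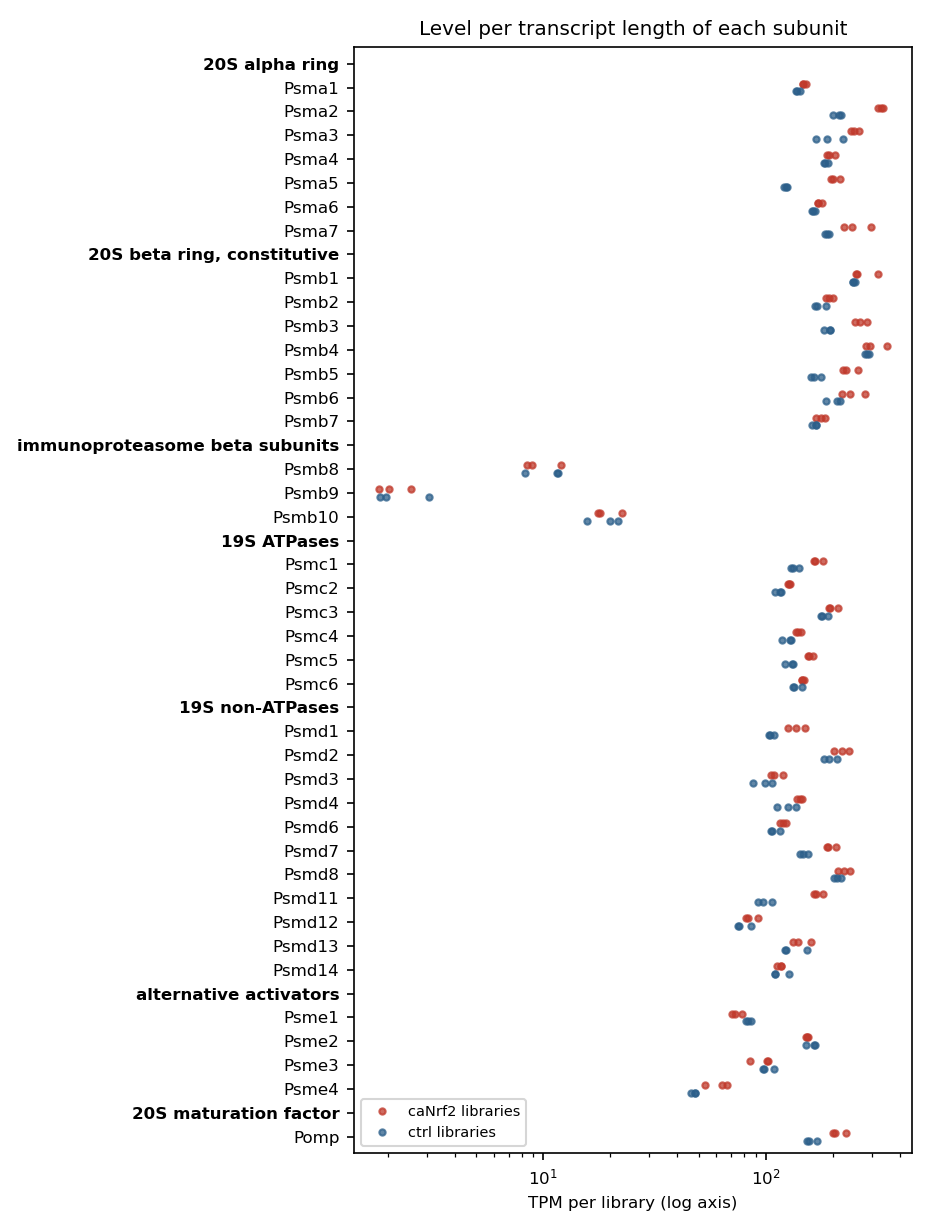
TPM (log axis) of each of the 39 genes in the 3 caNrf2 libraries (red, upper points) and the 3 ctrl libraries (blue, lower points), grouped by subcomplex. The group means of the constitutive 20S and 19S genes lie between 79.0 and 327 TPM, and the 3 immunoproteasome genes lie below every other gene, with Psmb9 lowest at a mean of 2.13 TPM in caNrf2 and 2.29 TPM in ctrl.

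Genes that control or use the proteasome were read from the same fit. In the list for transcriptional control, 6 of 10 genes rose and 1 fell. The gene that fell was Nfe2l1, the main transcriptional activator of subunit genes, with 267, 264 and 295 CPM in the caNrf2 libraries, against 345, 398 and 427 CPM in the ctrl libraries. It was the most abundant on the list in mean TPM over all 6 libraries and in ctrl, while in caNrf2 Nfe2l2 was higher, at 285 TPM against 162.5 TPM for Nfe2l1. In CPM all caNrf2 values of Nfe2l1 were below all ctrl values (log2 -0.50 ± 0.10, adjusted p = 0.00848). In TPM its groups overlapped, with caNrf2 replicate 3 at 179 TPM and ctrl replicate 1 at 173 TPM. Of the factors that process its protein, the protease gene Ddi2 was at log2 -0.24 ± 0.09 (adjusted p = 0.0911) and the deglycosylase gene Ngly1 at -0.08 ± 0.09 (0.57). Beside Nfe2l2 itself, the risen genes of smallest adjusted p were Mafg, whose small Maf protein pairs with both factors, at log2 1.07 ± 0.12 (0.000445), and Keap1, the adaptor that targets Nrf2 for degradation, at 0.58 ± 0.07 (0.000843). Bach1, Mafk and Maff were at 0.71, 0.72 and 0.87, and Maff lost its call without ctrl replicate 1 (adjusted p = 0.0542).

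Of 17 genes for ubiquitin, its activating enzymes, shuttle factors and the Vcp segregase, 6 rose and none fell. Sqstm1, which encodes the ubiquitin-binding autophagy receptor p62 and is a known Nrf2 target, had 519.7, 452 and 464 CPM in the caNrf2 libraries, against 224, 271 and 282 CPM in the ctrl libraries (log2 0.89 ± 0.11; adjusted p = 0.000689). Vcp, the ATPase that extracts ubiquitinated proteins, had 893, 929 and 858 CPM in the caNrf2 libraries, against 611, 638 and 607 CPM in the ctrl libraries (log2 0.53 ± 0.08; adjusted p = 0.00199), and its cofactor gene Faf1 was at 0.34 ± 0.07 (0.00871). In all 3 the groups did not overlap in CPM, though those of Faf1 did in TPM. Ubb, Nploc4 and Rad23b also rose, by 0.55, 0.33 and 0.32, but each lost its call without at least 1 library, with adjusted p up to 0.0521 for Ubb, 0.103 for Nploc4 and 0.0836 for Rad23b. Rps27a, a ubiquitin and ribosomal fusion gene and the most abundant of the list per transcript length, was at log2 0.04 ± 0.19 (adjusted p = 0.9).

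Of 10 further subunits and associated factors tested, 2 rose and none fell. Zfand5, which encodes a factor that binds and activates the 26S proteasome, was at log2 0.32 ± 0.07 (adjusted p = 0.0155), and Ecpas, a scaffold that ties core and cap together, at 0.31 ± 0.08 (0.0216). Usp14, a deubiquitinase that binds the cap and the most abundant of them per transcript length, had 109, 121 and 115 CPM in the caNrf2 libraries, against 107, 104 and 89.2 CPM in the ctrl libraries. Its groups did not overlap in CPM, though they did in TPM, and it did not pass the threshold (log2 0.20 ± 0.09, adjusted p = 0.158). Adrm1, a ubiquitin receptor of the cap, had 92.6, 81.7 and 77.3 CPM in the caNrf2 libraries, against 62.8, 72.8 and 69.4 CPM in the ctrl libraries, without overlap, and narrowly missed the threshold (log2 0.29 ± 0.09; adjusted p = 0.0507, and 0.0321 by DESeq2). Without 1 of the libraries the adjusted p reached 0.0863 for Ecpas and 0.0615 for Zfand5. Psma8 and Psmb11, subunits of the testis and the thymus, were not tested, since they had at most 0.226 CPM in any library.

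Of the 11 interferon and MHC class I genes reported here, which are usually induced together with the immunoproteasome, 1 passed. Nlrc5, the transactivator of MHC class I genes, had 10.3, 11.4 and 13.4 CPM in the caNrf2 libraries, against 7.89, 7.50 and 8.16 CPM in the ctrl libraries, and rose (log2 0.58 ± 0.12; adjusted p = 0.0102). B2m, the most abundant of the list per transcript length, was at log2 -0.24 ± 0.10 (adjusted p = 0.119), and passed without caNrf2 replicate 1 (log2 -0.33; adjusted p = 0.0287). Across the 11 genes the median log2 fold change was -0.10.

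**Figure D5:**
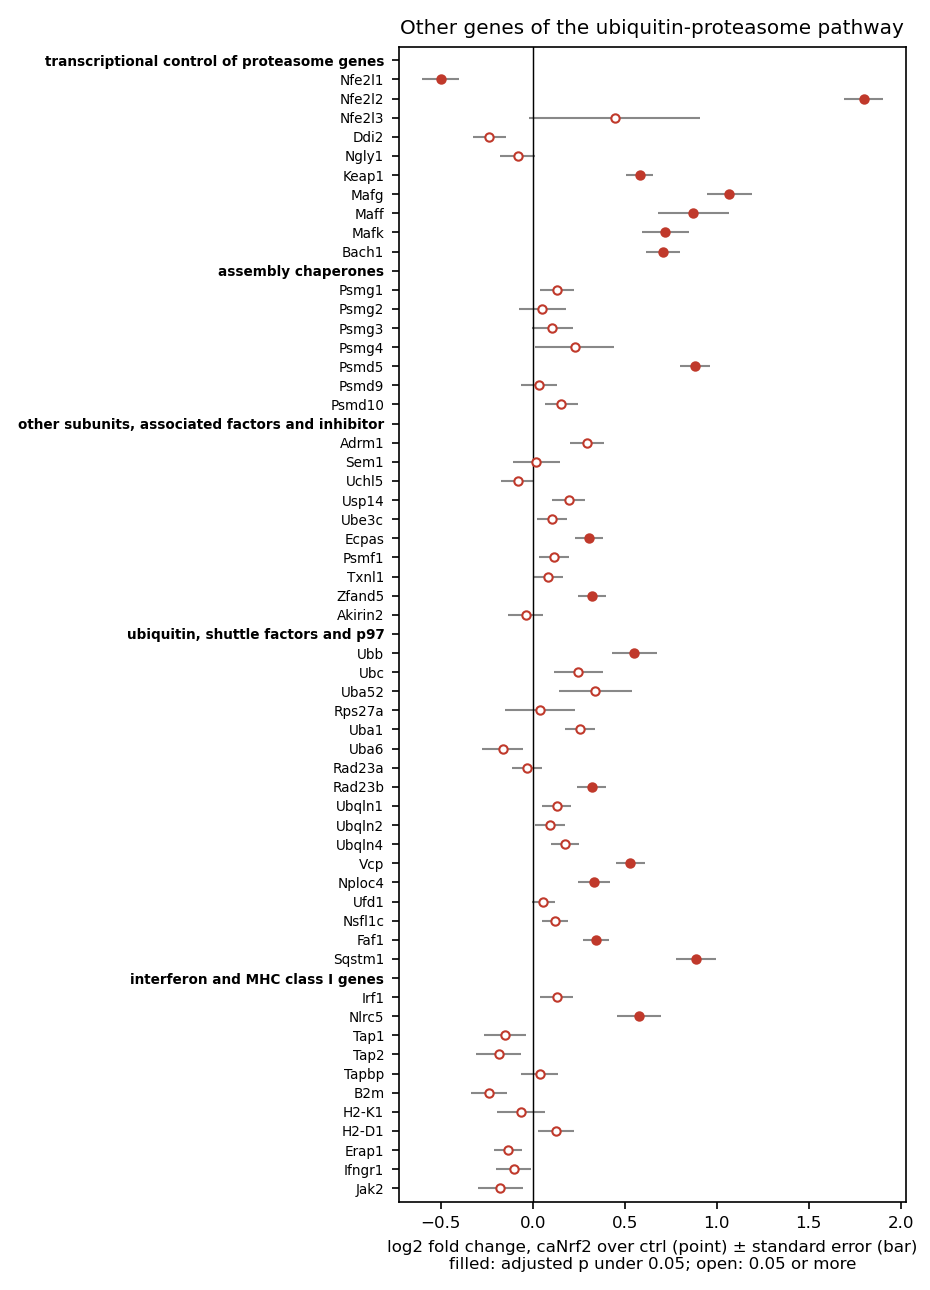
Log2 fold change, caNrf2 over ctrl (points), with standard errors (bars), of genes that control, assemble, bind or accompany the proteasome, in 5 lists. Filled points passed an adjusted p of 0.05. Nfe2l2 lies farthest right at 1.8, and Nfe2l1 farthest left at -0.50.

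The deposited values per transcript allowed a test of which transcripts of a gene were used. Of the 39 genes, 28 had at least 2 transcripts to compare, and none passed with edgeR's test (0 at an unadjusted p under 0.05, with 0.801% of 7992 genes called) or with limma's F test (0 at an unadjusted p under 0.05, with 0.438% called). This does not show that usage was the same, since on simulated data both tests missed most changes, and edgeR's also called more unchanged genes than its threshold allows. The smallest adjusted p values in limma's test were 0.493 for Psme3, 0.512 for Psme4 and 0.532 for Psmd4. In Psme3 the main transcript made up 86.9% ± 3.42 of the gene's TPM in caNrf2 and 75.9% ± 7.20 in ctrl (SD, n = 3 each). In Psme4 it made up 93.7% ± 1.05 in caNrf2 and 90.5% ± 1.03 in ctrl.

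The promoters were searched for the antioxidant response element core to which Nrf2 and small Maf proteins bind, TGACNNNGC, on both strands. RefSeq windows of 300 bases, 250 before to 50 after each annotated start on GRCm38.p6, were at hand for 33 of the 39 genes. The motif was in 5 of the 33 (15.2%), against 14% of 27025 genes with a window. It was in 2 of the 12 risen genes with a window (16.7%) and in 3 of the 21 that did not pass (14.3%), and in 3 of 5 NRF2 targets of the check list (60%). The 9-base site TGACTCAGC, which the core pattern contains as a special case, was in none of the 33 and in 0.503% of all genes. It was also in none of the 5 NRF2 targets with a window. These 5 promoter stretches are shown because they hold the motif, here in capitals, and because they come from members on both sides of the threshold. Each is written 5′ to 3′ along the gene's own strand, with up to 50 bases on each side of the motif, and is cut at the start site or at the end of a motif that crosses it.
Psmb5: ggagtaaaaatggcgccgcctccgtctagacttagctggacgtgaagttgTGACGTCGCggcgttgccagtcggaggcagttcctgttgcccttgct
Psme4: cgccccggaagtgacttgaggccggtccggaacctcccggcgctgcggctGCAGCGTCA
Psmb6: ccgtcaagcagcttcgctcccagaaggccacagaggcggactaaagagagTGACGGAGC
Psmd12: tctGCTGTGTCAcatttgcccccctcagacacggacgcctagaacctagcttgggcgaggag
Psmc6: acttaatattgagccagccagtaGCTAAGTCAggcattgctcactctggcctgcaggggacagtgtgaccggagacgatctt
The Psmb5 stretch lies at chr14:54617996-54618092 on the minus strand, with the motif as printed beginning 47 bases before the start site. The Psme4 stretch lies at chr11:30771718-30771776, with the motif on the opposite strand across the start site. The Psmb6 stretch is at chr11:70525298-70525356, with the motif as printed and ending just before the start site. Those of Psmd12 at chr11:107479278-107479339 and Psmc6 at chr14:45329574-45329655 hold it on the opposite strand, near the far end of the window; these last 4 genes lie on the plus strand. Psmb5 and Psme4 rose, as given above, while Psmb6, Psmd12 and Psmc6 did not pass, at log2 0.34, 0.19 and 0.15. The members of largest fold change with a window, Psmd11, Psma5 and Psma2, held no match in it. A match is a description of the sequence, and a window without one says only that these letters are not in it.

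The 39 genes are spread over 14 chromosomes, with 8 on chromosome 11 and 5 on chromosome 14. Overlapping genes could add reads in a few cases: Psmb7 overlaps Nek6 (103.5 CPM in caNrf2 and 84.7 in ctrl) and Psmc3 overlaps Slc39a13 (98.1 CPM in caNrf2 and 88.1 in ctrl), both on the opposite strand. Psmd13 overlaps Gm15542 on the same strand (15.1 CPM in caNrf2 and 14.6 in ctrl). Among the 13 risen genes, the most abundant overlapping gene was 3110056K07Rik at Psma3, with 2.52 CPM in caNrf2 and 2.13 in ctrl. Pseudogenes named for Psmb5, Psmb6 and Psmb7 took at most 0.113 CPM in any library, and Psme2b, a copy of Psme2, averaged 0.162 CPM in caNrf2 and 0.26 in ctrl.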

How the data were processed

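Per the submitters' processing notes, reads were handled with CASAVA 1.8 and RSEM 1.2.21 on build GRCm38; the sources used here give no aligner, annotation release or strand setting. The authors deposited, for each of 6 libraries, expected counts for 104129 transcripts (maximum likelihood and posterior mean), TPM and FPKM, per the file headers. Because RSEM divides shared reads by estimate, close copies are less certain. Maximum likelihood expected counts were summed for each of 43629 genes and rounded. Gene names came from a reference table, which named 42462 IDs.

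Genes were filtered with filterByExpr (minimum count 10, minimum total 15), scaled by TMM and tested with edgeR 4.0.16 (R 4.3.3) by the quasi-likelihood F test on group, with Benjamini-Hochberg adjustment over 15341 genes and a threshold of 0.05. The SE of a log2 fold change was taken from its F value. Transcript usage was tested with diffSpliceDGE and, chosen after the data were seen, with the F test of limma 3.58.1. DESeq2 1.42.0 and limma-voom were alternatives for genes. Levels between genes were compared only in TPM, as the authors deposited it, summed per gene. The deposited FPKM entered 1 alternative only.

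Named in full were Nfe2l2, every member called, and, in each subcomplex, the members of highest and lowest log2 fold change and the most abundant in TPM. For other lists these were up to 3 genes called in each direction of smallest adjusted p and the most abundant; others named were chosen after their values were seen. The members and lists were chosen with earlier results of these data known, so no p is given for a list. A gene of the interferon list and one of the melanocyte and Schwann cell list are not reported here, and the counts leave them out. Tested on simulated data, the gene fit called most large changes and few small ones. Far fewer genes were changed in the simulation than were called in the data, so the share called there does not carry over to the members. A member that did not pass is not shown to be unchanged. Groups and replicate numbers came from the sample titles. The p-values measure the spread between libraries that the design text places in 3 mice a group. Depth limits Psmb9 most, at about 1 CPM.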

Additional observations from a re-analysis of the deposited data

How the results depend on the processing

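Psma2, Psma5, Psmb3, Psmb5, Psmc1, Psmc5, Psmd1, Psmd7, Psmd11, Psme4 and Pomp, 11 of the 13 risen members, stayed called under all 15 alternatives for genes (3 other scalings, 2 other filters, posterior mean counts, the replicate block, DESeq2, limma-voom and leaving out each library). The count of risen members was 13 under every scaling, filter and count alternative, 16 with DESeq2, and 11 to 13 with 1 library left out; none fell under any of the 15. With the replicate block 13 members rose, the median log2 fold change was 0.21, and 1888 genes rose and 1330 fell. The numbers were not taken as pairs, since the labels do not say what a number marks. Same-numbered libraries had correlations of deviations from the group means of 0.214, 0.209 and 0.095. Libraries of different numbers had correlations of -0.242 to 0.112, and caNrf2 replicate 3 correlated best with ctrl replicate 2 (0.112). The median of the members lay between 0.18 and 0.24 over the leave-one-out fits and was 0.18 with upper-quartile scaling, where the median of all genes was -0.04. The count of all genes that fell was 823 to 1143 with 1 library left out, against 1385, and the lowest values came without ctrl replicate 3 (823) and without caNrf2 replicate 2 (864). Over the same fits Psmb10 was at log2 -0.089 to 0.18 and Psme2 at -0.075 to 0.11, and of the genes outside the complex Psmg2 at -0.097 to 0.13, Psmg4 at -0.0504 to 0.37, Psmd9 at -0.047 to 0.10 (-0.0038 with upper-quartile scaling) and Rps27a at -0.23 to 0.16; the immunoproteasome median was -0.25 to -0.0036. The immunoproteasome share differed by -1.07 percentage points, caNrf2 minus ctrl, and by -1.44 to -0.78 with 1 library left out. For transcript usage 64 genes were called, 35 with limma or with the replicate block, 12 with transcripts of at least 10% of their gene, and 85 to 131 with 1 library left out; no member was called in any of these. Over all alternatives the member values kept direction and call in 572 cases, lost a call in 7, gained one in 3 and turned sign in 3; for the other genes named the counts were 651, 27, 5 and 7. What causes these shifts was not tested. With 3 libraries a group, the SE of a member's log2 fold change limits what could be called: the smallest log2 fold change of a risen member was 0.36 (Psmc5), while DESeq2 also called Psmc3 at 0.23, Psmd2 at 0.24 and Psmb6 at 0.34.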
